A study of Mus musculus with 3 samples.

Results

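The unfolded protein response genes described here are a fixed list of 36 symbols, matched by name among the 32285 genes of the deposited count tables. They fall into 3 arms: 15 chaperone and folding genes, 11 genes of ER-associated degradation (ERAD) and of the translocon, and 10 stress sensors with the genes of the ATF4 branch. Their levels were read in the adventitia of the aorta, the connective tissue sheath around the vessel. The mice received saline (Vehicle), received angiotensin II and had no wheel named (AngII), or received it with voluntary wheel running (AngII_VWR). Angiotensin II is a hormone that constricts vessels and raises blood pressure. The labels named 9 mice, 3 in each group, gave no strain, age, sex, dose or duration, and did not say how the mice were combined. Each group was deposited as 1 library of 3′ droplet single-cell RNA sequencing, so no statistical test between groups was possible, and group, mice and preparation cannot be told apart. The third library is titled with the letters EX and was taken as the running group. Both groups given angiotensin II share that treatment, and AngII_VWR differs from AngII, per the labels, by the wheel.

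Proteins that are secreted or placed in membranes enter the endoplasmic reticulum (ER) through the Sec61 channel and are folded there by chaperones such as BiP, the product of Hspa5, and by disulfide isomerases. When unfolded protein accumulates, the sensors IRE1 (Ern1), PERK (Eif2ak3) and ATF6 start the unfolded protein response: spliced XBP1 and cleaved ATF6 raise chaperones and ERAD genes, while PERK slows translation and lets ATF4 be made, which raises Ddit3 (CHOP), Trib3 and the amino acid enzyme Asns. Fibroblasts of the adventitia make collagen and other matrix proteins, a heavy load for the ER. Splicing of Xbp1, cleavage of ATF6 and phosphorylation of PERK are not visible in gene counts.

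The promoters of many chaperone genes carry the ER stress element, a CCAAT box set 9 bases before CCACG, which was searched for in that form, any 9 bases between, on both strands from 250 bases before to 50 bases after the start of transcription (RefSeq, GRCm38.p6). Promoters were on hand for 31 of the 36 genes, and Derl1, Manf, Sec61a1, Atf6 and Hyou1 were not matched. The element stood in 39 of 32851 promoters (0.119%), and in 7 of 13 promoters of the chaperone arm. Each match is printed 5′ to 3′ along the element, with its letters in capitals and 5 flanking bases in lower case, and shown because 7 of the 9 genes that hold it are chaperone genes:
Hspa5: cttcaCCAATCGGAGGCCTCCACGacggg
Hsp90b1, distal: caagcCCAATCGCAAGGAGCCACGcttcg
Hsp90b1, proximal: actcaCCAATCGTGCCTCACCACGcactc
Calr: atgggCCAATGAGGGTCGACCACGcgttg
Canx: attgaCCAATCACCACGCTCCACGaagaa
Pdia6: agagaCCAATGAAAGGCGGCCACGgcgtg
Creld2: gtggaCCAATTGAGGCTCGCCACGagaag
Dnajc3: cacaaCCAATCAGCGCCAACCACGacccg
Syvn1: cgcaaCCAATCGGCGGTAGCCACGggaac
Derl3: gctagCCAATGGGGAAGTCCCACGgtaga

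The Hspa5 stretch lies at chr2:34772020-34772048 on the plus strand, and its element begins 65 bases before the RefSeq start. GENCODE M21 places a longer first exon of Hspa5 over it, in the 5′ untranslated region. The proximal Hsp90b1 stretch lies at chr10:86705528-86705556 (read on the plus strand) and the distal one at chr10:86705633-86705661 (minus strand). The Calr stretch is at chr8:84847070-84847098 (plus), that of Canx at chr11:50325795-50325823 (minus), and that of Pdia6 at chr12:17266486-17266514 (plus). The Creld2 stretch is at chr15:88819515-88819543 (minus) and that of Dnajc3 at chr14:118937822-118937850 (plus). Syvn1 has its element at chr19:6046527-6046555 (plus) and Derl3 at chr10:75893237-75893265 (minus). Apart from that of Hspa5, none of these elements overlapped an annotated GENCODE gene. In the ERAD arm 2 of 10 promoters held the element (Syvn1 and Derl3), and in the sensor and ATF4 arm 0 of 9.

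ATF4 pairs with C/EBP proteins on another site, searched for as TGATGNAAN on both strands, which stood in 3.95% of all promoters in the table. It was found in 3 of 9 promoters of the sensor and ATF4 arm, in that of the ERAD gene Herpud1, and in 0 of 13 of the chaperone arm:
Asns: ccacaTGATGAAACttccc
Chac1: aggagTGATGCAACggcag
Trib3: ccggcTGATGTAAAcctga
Herpud1: cgggcTGATGCAACccgcc

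The Asns stretch lies at chr6:7693219-7693237 (minus strand), in a GENCODE 5′ untranslated exon of Asns, and that of Chac1 at chr2:119351043-119351061 (minus), outside annotated genes. The Trib3 stretch lies at chr2:152344034-152344052 (plus), beginning 13 bases after the RefSeq start, and that of Herpud1 at chr8:94386311-94386329 (minus), inside the gene model Gm15890. The XBP1 site TGACGTGG, present in 0.676% of all promoters, had no match in the promoters of the members. The bare CCACG, which overlaps the element, stood in 32.8% of all promoters and in 12 of 13, 8 of 10 and 5 of 9 of the 3 arms. These matches describe letters in a window and say nothing of binding.

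After filtering, 12324, 9115 and 16125 cells remained in Vehicle, AngII and AngII_VWR, with a median of 9430.5, 13154 and 4472 unique molecules (UMIs) per cell, so AngII was the deepest and AngII_VWR the shallowest library. Cell barcodes shared between libraries numbered 44 (Vehicle and AngII), 80 (Vehicle and AngII_VWR) and 68 (AngII and AngII_VWR). Cells were put in classes by share of UMIs. The fibroblast class had at least 1% from Col1a1, Col1a2, Dcn and Lum, and held 6545, 6081 and 10913 cells. The macrophage class had at least 0.3% from C1qa, C1qb and C1qc, and held 2537, 1998 and 3221 cells. The rest numbered 3177, 1022 and 1915, and 65, 14 and 76 cells over both cuts were set aside. Of 6 other fibroblast genes (Pdgfra, Col3a1, Dpt, Gsn, Serping1 and Mfap5), all were at 5 CPM or more in the fibroblast class of each library, with a sum of 23042, 20920 and 22464 CPM. Of 6 other macrophage genes (Csf1r, Cd68, Adgre1, Mrc1, Lyz2 and Fcgr1), all were at 5 CPM or more in the macrophage class of each library, with a sum of 15809, 18741 and 13604 CPM. These classes are ranges and not cell types: 1216, 290 and 746 cells had between 0.5 and 1 times the fibroblast cut, and 219, 58 and 448 of the macrophage cut. Levels are UMIs of a gene per 1000000 UMIs of the class (CPM), so they are shares of the RNA counted and not amounts per cell. Intervals are exact 95% intervals that cover counting error only. A gene counted as measured in a comparison with at least 5 CPM in either library and at least 10 UMIs over both, and as called when it differed by at least 1.5-fold on the scale of log2(CPM + 1).

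In fibroblasts the chaperone arm was lowest in AngII for all 15 of its genes. Together the 15 genes took 6900 CPM in Vehicle, 4834 in AngII and 7017 in AngII_VWR. All 15 were lower in AngII than in Vehicle, 6 of them by at least 1.5-fold, with a median log2 ratio of -0.44. All 15 were higher in AngII_VWR than in AngII, 7 of them by at least 1.5-fold, with a median of 0.56. Among all genes measured, 4.90% were at least 1.5-fold lower in AngII than in Vehicle and 62.0% were lower at all (median -0.07). In AngII_VWR against AngII, 7.07% of all genes were at least 1.5-fold higher and 62.3% were higher at all (median 0.10). Taken relative to that median, 14 of the 15 chaperone genes were still above it and 6 were at least 1.5-fold above it, against 4.53% of all genes. Both comparisons use the AngII library, so a low value there moves both.

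**Figure D1:**
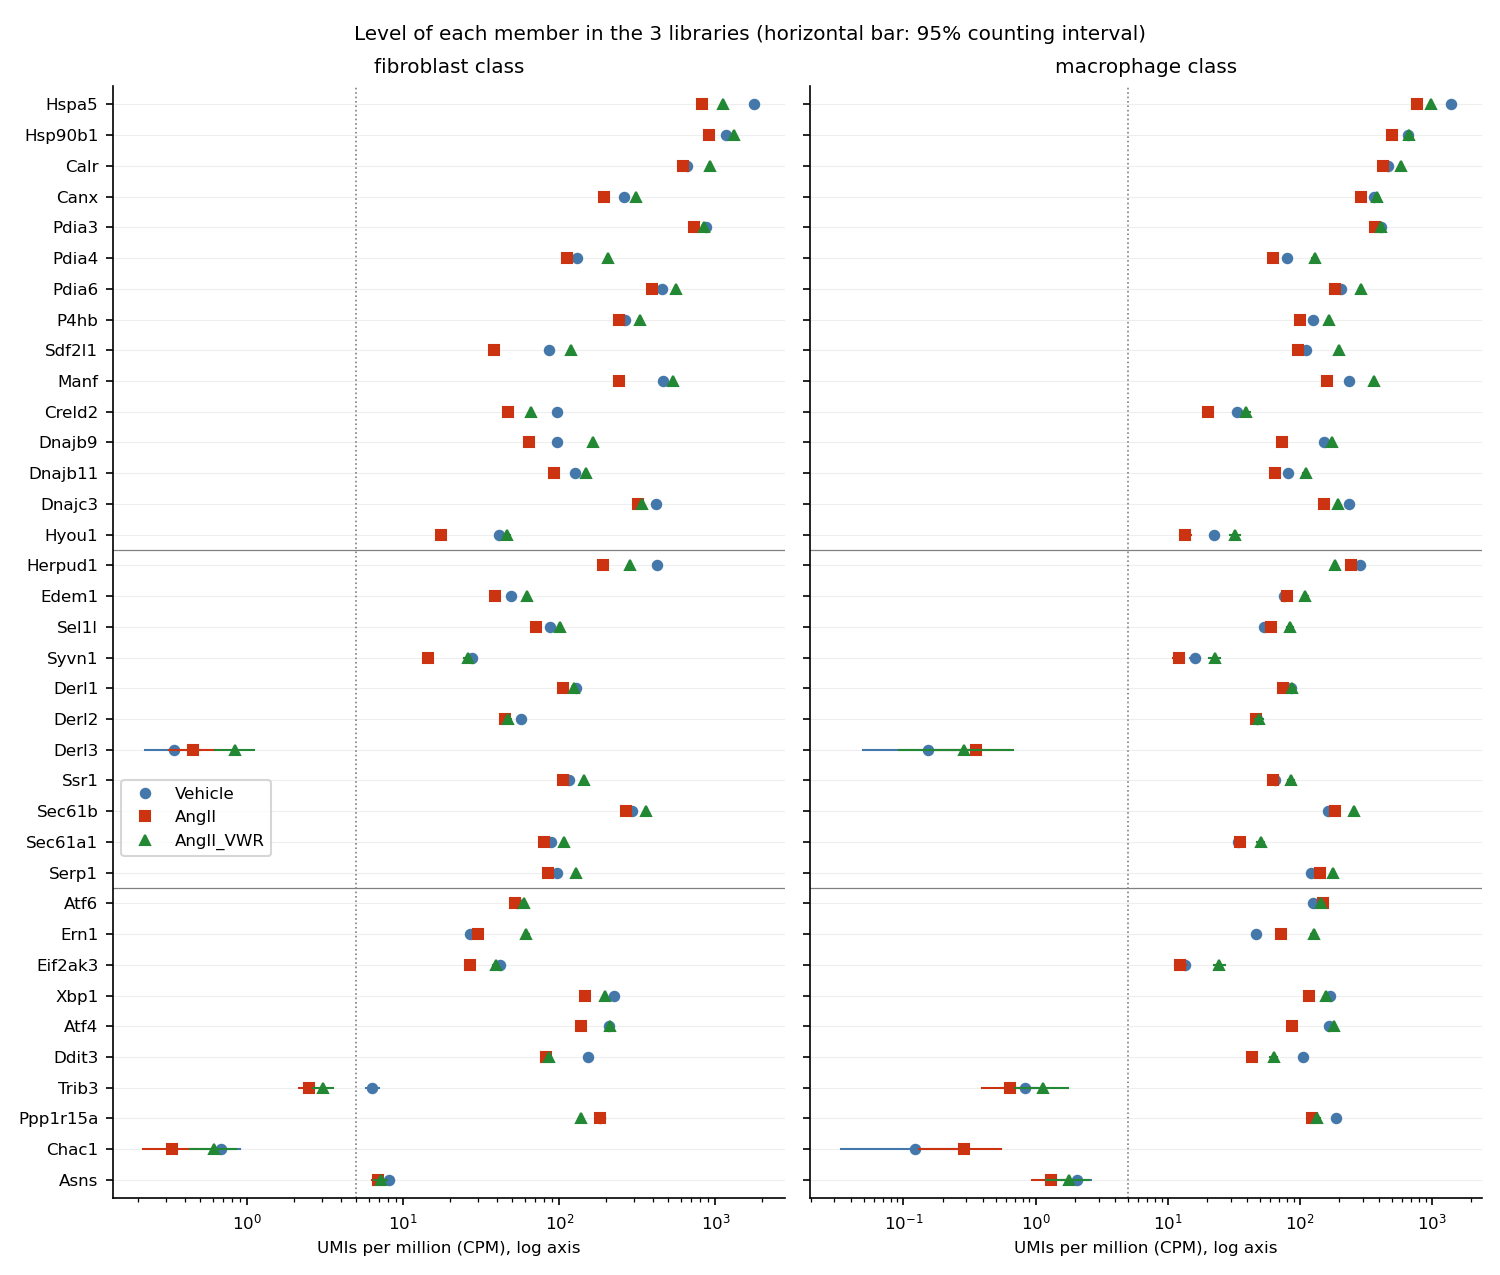
Level of each member in fibroblasts and macrophages of the 3 libraries, as CPM on a log axis, with exact 95% counting intervals as horizontal bars and the floor of 5 CPM dotted. Grey lines part the chaperone, ERAD and sensor arms, the AngII square is leftmost for all 15 chaperone genes in both classes, and Chac1 had no UMI in AngII_VWR macrophages.

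Hspa5, which encodes the abundant ER chaperone BiP and holds the sensors inactive, stood at 1762 CPM in fibroblasts of Vehicle (1752 to 1771), 822 in AngII (816 to 829) and 1126 in AngII_VWR (1117 to 1134). It was thus 2.14-fold lower in AngII than in Vehicle (2.12 to 2.16) and 1.37-fold higher in AngII_VWR than in AngII (1.35 to 1.38), still below Vehicle. The nucleotide exchange factor of BiP, Hyou1, stood at 40.8, 17.3 and 46.2 CPM in Vehicle, AngII and AngII_VWR. On the scale of log2(CPM + 1) it had the lowest AngII to Vehicle ratio of the measured members (-1.19). In AngII_VWR its CPM was 2.66-fold above AngII (1.36 on the scale of log2(CPM + 1)).

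Sdf2l1, a cofactor of BiP that keeps clients soluble, had 85.6, 38.2 and 119 CPM in the same order. Its ratio of AngII_VWR to AngII was the highest of the measured members, 3.12-fold (2.99 to 3.25). Manf, a BiP partner that is secreted under ER stress, had 462, 242 and 534 CPM, which made AngII 1.91-fold lower than Vehicle (1.88 to 1.95) and AngII_VWR 2.21-fold higher than AngII (2.17 to 2.25). For both genes AngII was the low library and AngII_VWR lay above Vehicle. Creld2, a disulfide isomerase-like protein induced with Manf, had 96.2, 46.9 and 65.9 CPM and stayed below Vehicle in AngII_VWR.

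The J-domain proteins bring clients to BiP. Dnajb9 had 97.1, 64.2 and 164 CPM in Vehicle, AngII and AngII_VWR, a 2.55-fold difference between the AngII libraries (2.47 to 2.64). Dnajb11 had 126, 92.5 and 147 CPM. Dnajc3, which also restrains PERK, had 418, 319 and 339 CPM, so that AngII_VWR lay only 1.06-fold above AngII (1.05 to 1.08). Dnajc3 was the chaperone gene that lay below the median of all genes in that comparison.

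Hsp90b1, the ER form of Hsp90, had 1175, 904 and 1314 CPM. Among the lectins that hold glycoproteins, Calr had 661, 623 and 922 CPM, and its membrane-bound relative Canx had 260, 192 and 309. In all of these AngII_VWR was the highest library, with 1.45-fold for Hsp90b1, 1.48-fold for Calr and 1.61-fold for Canx over AngII.

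Among the disulfide isomerases, which form and reshuffle disulfide bonds, Pdia4 had 129, 112 and 206 CPM and differed most between the AngII libraries (1.84-fold, 1.79 to 1.89). Pdia6 had 458, 394 and 555 CPM. P4hb, which is also the beta subunit of the collagen prolyl hydroxylase, had 262, 239 and 327 CPM. Pdia3 had 868, 728 and 843 CPM and was highest in Vehicle. The isomerases were 1.10-fold to 1.19-fold lower in AngII than in Vehicle.

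Chaperone genes with and without the ER stress element are set side by side here with no test. In fibroblasts the 7 with a match had a median log2 ratio of -0.39 for AngII over Vehicle (-1.10 to -0.09), and the 6 with a promoter but no match had -0.34 (-1.14 to -0.13). For AngII_VWR over AngII the medians were 0.49 with a match and 0.77 without. Sdf2l1, Dnajb9 and Pdia4, which were among the highest in that comparison, had no match.

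In the ERAD and translocon arm, 10 of 11 genes were measured in fibroblasts. Against Vehicle all 10 were lower in AngII, 2 of them by at least 1.5-fold (median log2 -0.28), where 4.90% of all genes were. All 10 were higher in AngII_VWR than in AngII, 3 of them by at least 1.5-fold (median 0.46), where 7.07% of all genes were. Relative to the median of all genes 1 of the 10 was, where 4.53% of all genes were. Herpud1, which anchors the retrotranslocation complex, had 420 CPM in Vehicle, 192 in AngII and 284 in AngII_VWR. It was 2.19-fold lower in AngII than in Vehicle (2.15 to 2.24). Syvn1 (Hrd1), the ubiquitin ligase of that complex, had 27.7, 14.4 and 25.9 CPM, and its partner Sel1l had 86.7, 71.2 and 101. Edem1, which directs misfolded glycoproteins to degradation, had 49.2, 38.7 and 62.3 CPM.

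The derlins form part of the exit channel. Derl1 had 128, 106 and 125 CPM and Derl2 had 56.7, 44.8 and 47.2. Derl3 was under the floor, with 25, 37 and 49 UMIs in all. The channel and translocon genes were nearer to Vehicle in AngII: Sec61b had 293, 266 and 359 CPM, Sec61a1 87.9, 79.3 and 106, the signal sequence receptor Ssr1 114, 106 and 143, and Serp1, which stabilises membrane proteins, 96.8, 84.5 and 128. In these 4 genes AngII lay 1.08-fold to 1.15-fold below Vehicle, and AngII_VWR was the highest library.

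In the sensor and ATF4 arm 9 of 10 genes were measured in fibroblasts, and 8 were lower in AngII than in Vehicle, 5 by at least 1.5-fold (median log2 -0.59), where 4.90% of all genes were. Relative to the median of all genes 2 were, where 413 of all 10449 genes were. Without cells high in early response genes 2 also were, and no share of all genes is given for that count. The 8, the 5 and the 2 relative to the median include Trib3. It passed the floor through Vehicle only, and so could only be lower in AngII. In AngII_VWR against AngII 7 of 8 measured genes were higher, 2 by at least 1.5-fold (median 0.31), where 7.07% of all genes were. Relative to the median of all genes 1 was, where 4.53% of all genes were. Of the sensors, Ern1 went another way. It had 26.6 CPM in Vehicle, 29.9 in AngII and 61.5 in AngII_VWR. It was the 1 measured member that was higher in AngII than in Vehicle in fibroblasts (1.12-fold, 1.06 to 1.19, log2 0.16), and it was 2.06-fold higher in AngII_VWR than in AngII (1.95 to 2.17). The small AngII difference turned over, to a log2 ratio of -0.36 without cells high in early response genes and to -0.34 in cells with 2000 to 10000 UMIs. Eif2ak3 had 41.4, 26.7 and 39.0 CPM. Atf6 had 53.6, 51.7 and 59.1 CPM, and the interval of its AngII difference from Vehicle held no difference (0.993 to 1.08). Xbp1, the transcript that IRE1 splices, had 225, 146 and 197 CPM.

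Atf4 had 208, 138 and 212 CPM in fibroblasts, and so was back at its Vehicle level in AngII_VWR. Ddit3, which ATF4 raises and which encodes the factor CHOP of prolonged stress, was not, with 152, 82.2 and 85.7 CPM. AngII was 1.85-fold below Vehicle (1.79 to 1.90), and AngII_VWR lay 1.04-fold above AngII (1.01 to 1.08). A further gene ID that carries the Ddit3 symbol had 0 UMIs in all libraries.

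Trib3, a pseudokinase that restrains the response, had 6.3, 2.5 and 3.1 CPM and passed the floor through Vehicle only. Ppp1r15a (GADD34), which guides the phosphatase that restarts translation, had 183, 182 and 137 CPM, and it was the 1 measured member lower in AngII_VWR than in AngII (log2 -0.40). Without cells high in early response genes that ratio turned to 0.87. Asns had 8.1, 6.9 and 7.2 CPM. Chac1, which degrades glutathione, stayed under the floor at 0.7, 0.3 and 0.6 CPM.

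Over the whole list in fibroblasts, 34 of 36 members were measured in AngII against Vehicle, with 33 lower and 13 of them at least 1.5-fold lower. Of all genes 62.0% were lower and 4.90% were at least 1.5-fold lower. The 33 and the 13 include Trib3, which passed the floor through Vehicle only. In AngII_VWR against AngII 33 were measured, 32 were higher and 12 were at least 1.5-fold higher. Of all genes 62.3% were higher and 7.07% were at least 1.5-fold higher. Relative to the median of all genes, 8 members were at least 1.5-fold higher, where 4.53% of all genes were. Set against Vehicle, AngII_VWR was higher for 20 members and lower for 14 (median log2 0.17), where 54.4% of all genes were higher. The 14 that stayed below Vehicle included Hspa5, Herpud1, Creld2, Dnajc3, Ddit3 and Ppp1r15a.

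**Figure D2:**
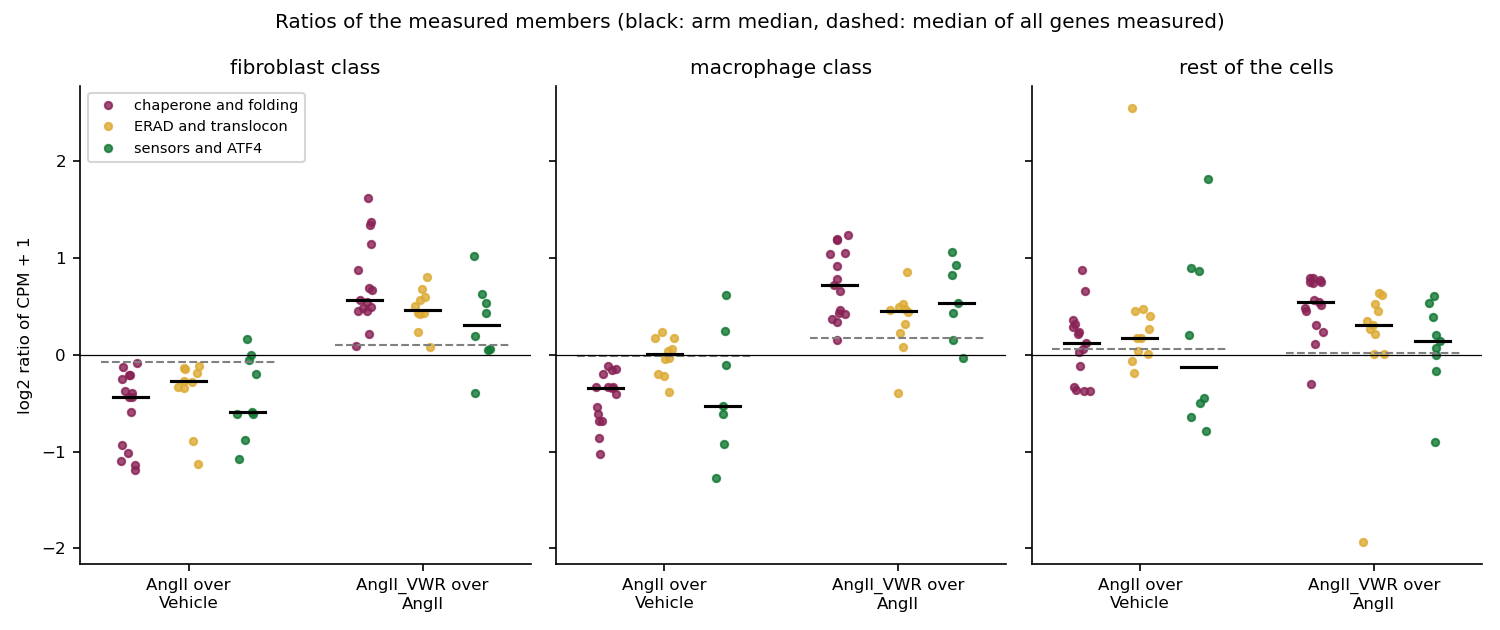
Log2 ratios of CPM + 1 of the measured members, 1 point a gene, for AngII over Vehicle and AngII_VWR over AngII in each class, with arm medians in black and the median of all genes dashed. In fibroblasts and macrophages the chaperone points lie below 0 in the first comparison and above 0 in the other, while in the rest the first comparison straddles 0.

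In macrophages the chaperone arm had the same order, while the ERAD arm did not. The 15 chaperone genes took 4587, 3287 and 4755 CPM in Vehicle, AngII and AngII_VWR, and all 15 were lowest in AngII. Against Vehicle, 5 of 15 were at least 1.5-fold lower in AngII (median log2 -0.34), where 6.29% of all genes were and 51.8% were lower at all. Against AngII, 9 of 15 were at least 1.5-fold higher in AngII_VWR (median 0.72), where 14.3% of all genes were and 68.5% were higher at all. The median of all genes in that comparison was 0.17, and the chaperone median lay 0.55 above it.

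Hspa5 had 1399 CPM in macrophages of Vehicle, 771 in AngII and 992 in AngII_VWR. AngII was 1.81-fold below Vehicle (1.79 to 1.84). Dnajb9 had 152, 73.9 and 175 CPM and was the chaperone gene with the lowest AngII to Vehicle ratio (log2 -1.03). Manf had 236, 162 and 368 CPM, and Hyou1 had 22.5, 13.6 and 32.3. For these last 3 genes AngII was the low library and AngII_VWR the high one.

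Sdf2l1 had 111, 96.5 and 200 CPM in macrophages, so its AngII level was only 1.15-fold below Vehicle (1.10 to 1.21), whereas in fibroblasts it was 2.24-fold below (2.15 to 2.34). Pdia4 had 80.0, 62.8 and 130 CPM and Creld2 had 33.5, 20.4 and 39.3. The lectins differed less: Calr had 463, 426 and 585 CPM and Canx 368, 291 and 388. Whether the size of the difference varies between fibroblasts and macrophages was not tested.

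The ERAD arm of macrophages was split between AngII and Vehicle, with 5 of 10 measured genes lower and a median log2 ratio of 0.00. Herpud1 had 285, 244 and 185 CPM in Vehicle, AngII and AngII_VWR, and was the ERAD gene lowest in AngII_VWR, 1.32-fold below AngII (1.27 to 1.38). Serp1 had 122, 143 and 179 CPM, Sec61b 165, 186 and 258, and Sel1l 53.6, 60.3 and 84.9, each lowest in Vehicle and highest in AngII_VWR. In AngII_VWR against AngII, 9 of 10 were higher and 1 by at least 1.5-fold, where 14.3% of all genes were. That gene was Syvn1, with 22.7 against 12.1 CPM.

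The sensor and ATF4 arm of macrophages had 5 of 7 measured genes lower in AngII than in Vehicle, 3 by at least 1.5-fold (median log2 -0.53). Of all genes 51.8% were lower and 6.29% were at least 1.5-fold lower. In AngII_VWR 6 of 7 were higher than in AngII, 3 by at least 1.5-fold (median 0.53). Of all genes 68.5% were higher and 14.3% were at least 1.5-fold higher. Ern1 was the 1 member at least 1.5-fold higher in AngII than in Vehicle in this class, where 6.80% of all genes were. It had 46.6 CPM in Vehicle, 71.8 in AngII and 127 in AngII_VWR. Atf6 had 126, 150 and 146 CPM. Both sensors were lowest in Vehicle. Eif2ak3 had 13.5, 12.5 and 24.6 CPM, and its intervals in Vehicle (12.3 to 14.8) and AngII (11.3 to 13.8) overlapped. Its log2 ratio of AngII to Vehicle ran from -0.61 to 0.48 over the alternatives.

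Atf4 had 166, 87.3 and 183 CPM in macrophages and was 2.10-fold higher in AngII_VWR than in AngII (1.99 to 2.21). Ddit3 had 107, 43.6 and 63.5 CPM, the lowest ratio of AngII to Vehicle in this class (2.45-fold lower, 2.30 to 2.61). Xbp1 had 170, 118 and 159 CPM, and Ppp1r15a had 189, 123 and 136. Trib3, Asns, Chac1 and Derl3 were under the floor in all 3 libraries, and Chac1 had 0 UMIs in AngII_VWR, which allows up to 0.212 CPM.

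Over the list, 32 of 36 members were measured in macrophages. Of these 25 were lower and 8 were at least 1.5-fold lower in AngII than in Vehicle, against 51.8% and 6.29% of all genes. In AngII_VWR 30 were higher than in AngII and 13 were at least 1.5-fold higher, against 68.5% and 14.3% of all genes. Relative to the median of all genes 11 were, where 8.60% of all genes were.

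Genes of the early response and of heat shock, which dissociation of tissue can raise, moved with the macrophage result between Vehicle and AngII. Between AngII and AngII_VWR they did so little, with a median log2 ratio of 0.21, where that of all genes was 0.17. All 15 were still lower in AngII_VWR than in Vehicle. The 15 such genes took 25141 CPM in Vehicle, 14229 in AngII and 15624 in AngII_VWR in macrophages, and all 15 were lower in AngII than in Vehicle. Only 314 of the 2537 Vehicle macrophages and 601 of the 1998 AngII macrophages had under 1% of their UMIs from these genes, and they differed in depth, with a median of 2416 UMIs in Vehicle and 16307 in AngII. Among those cells 14 of 15 chaperone genes were lower in AngII (median log2 -0.18, where the median of all genes was -0.11) and 2 were at least 1.5-fold lower. The log2 ratio of Hspa5 was then 0.00 in place of -0.86, that of Ppp1r15a was 0.63 in place of -0.61, and 3 of 7 sensor and ATF4 genes were lower. In AngII_VWR 782 macrophages were under the 1%, with a median of 4095.5 UMIs. There 15 of 15 chaperone genes were higher than in the AngII macrophages under the 1% (median 0.64). In fibroblasts the early response genes took 22836, 22250 and 17962 CPM. Fibroblasts under the same 1% had 13 of 15 chaperone genes lower in AngII than in Vehicle, 3 of them by at least 1.5-fold (median -0.42), and 15 of 15 higher in AngII_VWR than in AngII (median 0.54). No share of all genes is given here for the cells under 1%. Over the whole fibroblast class 62.0% were lower and 4.90% at least 1.5-fold lower in AngII, and 62.3% were higher in AngII_VWR. Over the whole macrophage class these shares were 51.8%, 6.29% and 68.5%.

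Other measures moved with the libraries too. Summed macrophage-cut genes took 93.1, 74.4 and 228 CPM in the fibroblast class, and fibroblast-cut genes took 427, 462 and 1209 CPM in the macrophage class, highest in AngII_VWR. Erythroid genes took 1494, 578 and 179 CPM in fibroblasts. The median mitochondrial share was 1.66, 2.39 and 2.28% there. The part of these differences in the results was not tested, apart from the subtraction of RNA of other cells described with the processing. AngII_VWR was also the library counted with another version of Cell Ranger, which cannot be told apart from the group.

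Cell by cell, the share of UMIs from the chaperone arm had a median of 0.592% in Vehicle fibroblasts, 0.431% in AngII and 0.655% in AngII_VWR. The ranges overlapped: the 10th to 90th percentiles ran from 0.296 to 1.06%, from 0.236 to 0.704% and from 0.357 to 1.04%. In macrophages the medians were 0.397, 0.289 and 0.412%. Limited to cells with 2000 to 10000 UMIs, which brings the libraries nearer in depth, the medians were 0.557, 0.397 and 0.658% in fibroblasts and 0.361, 0.280 and 0.415% in macrophages. The order was the same as over all cells.

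**Figure D3:**
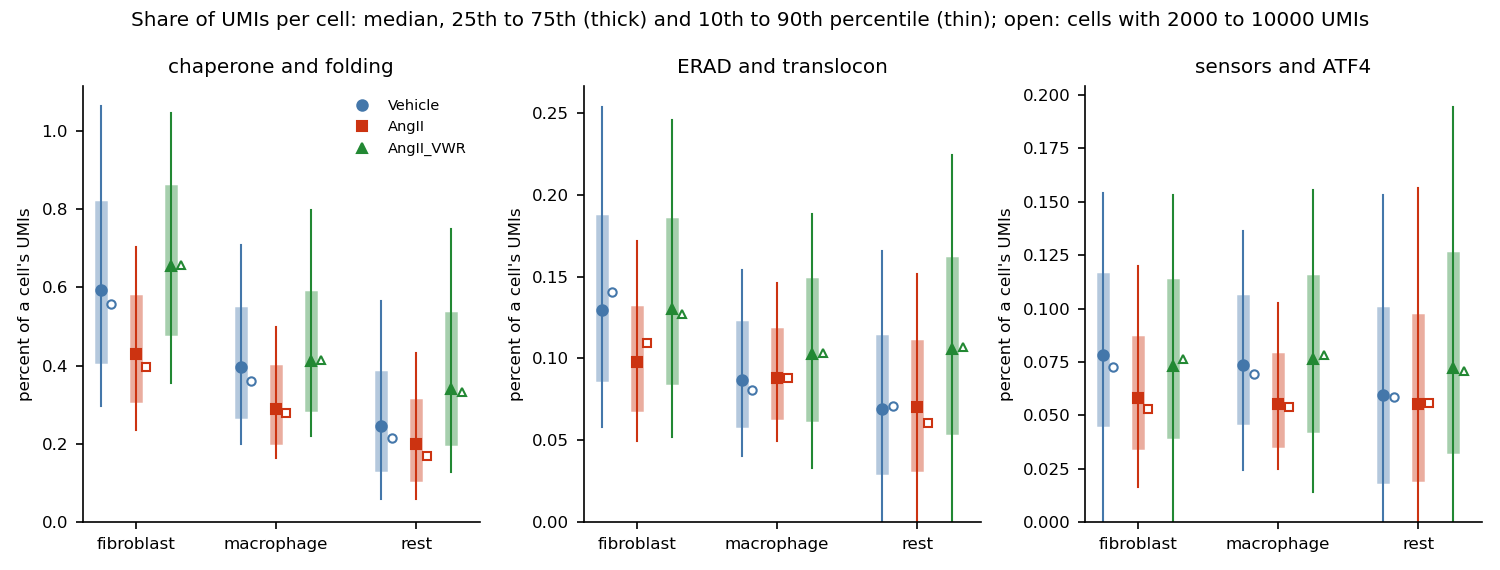
Share of a cell's UMIs taken by each arm, with the median as a marker, the 25th to 75th percentiles as a thick bar, the 10th to 90th as a thin line, and the median of cells with 2000 to 10000 UMIs as an open marker. The AngII median of the chaperone arm is the lowest of the 3 libraries in each class, with 0.431% in fibroblasts.

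Each cell was also thinned to 2000 UMIs, which left out shallower cells, to compare the share of cells with at least 1 UMI. Hspa5 was seen in 84.1% of thinned Vehicle fibroblasts, 65.9% in AngII and 82.1% in AngII_VWR. The 987, 477 and 2141 shallower fibroblasts were left out, and unthinned the shares were 90.2, 89.5 and 89.3%. Sdf2l1 was seen in 12.9, 6.62 and 18.5% of thinned fibroblasts (41.8, 29.3 and 36.7% unthinned) and Manf in 53.8, 35.4 and 59.4% (81.4, 77.8 and 77.2%). Ddit3 was seen in 20.8, 13.4 and 15.4% (51.2, 44.3 and 30.9%), so AngII_VWR stayed nearer to AngII than to Vehicle. These genes are used by every cell that secretes, so no class was at hand that lacks them and would give a background share.

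The chaperone arm was lowest in AngII within states of the fibroblasts too, while the order of Vehicle and AngII_VWR varied. Cells with at least 0.2% of UMIs from the activated genes Thbs4, Tnc, Comp, Cthrc1, Postn and Col8a1 and less than that from progenitor genes (Pi16, Dpp4, Cd55 and Sema3c) made up 2.32% of the fibroblast class in Vehicle, 30.2% in AngII and 17.6% in AngII_VWR. In them the chaperone arm took 0.672, 0.484 and 0.707% of UMIs. In cells with the progenitor genes alone it took 0.689, 0.477 and 0.668%. In cells with neither it took 0.688, 0.469 and 0.710%, and in cells with both 0.743, 0.529 and 0.737%. In each of the first 3 sets all 15 chaperone genes were lower in AngII than in Vehicle and higher in AngII_VWR than in AngII, and in cells with both kinds of genes 14 of 15 were lower in AngII and 15 of 15 higher in AngII_VWR. No share of all genes is given within these sets. Over the whole fibroblast class 62.0% of all genes were lower in AngII and 62.3% were higher in AngII_VWR.

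Macrophages with at least 0.5% of UMIs from class II genes, which present antigen, were 38.7% of the class in Vehicle, 65.2% in AngII and 37.7% in AngII_VWR. Their chaperone share was 0.480, 0.335 and 0.529%, and that of the other macrophages 0.447, 0.318 and 0.443%. In both sets all 15 chaperone genes were lower in AngII than in Vehicle and higher in AngII_VWR than in AngII.

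**Figure D4:**
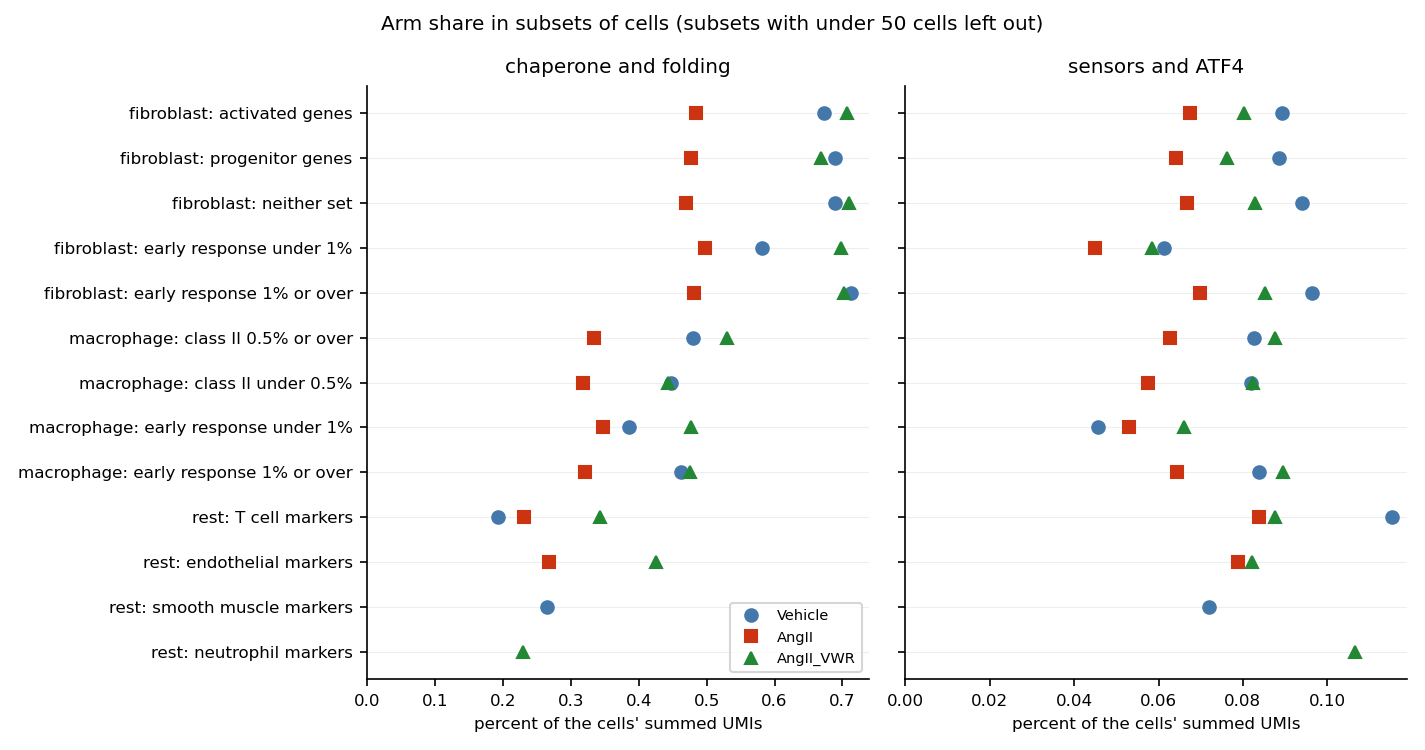
Share of summed UMIs taken by the chaperone arm and by the sensor and ATF4 arm in subsets of cells with at least 50 cells in a library. The AngII square of the chaperone arm is leftmost in each fibroblast and macrophage subset shown, but not in cells with T cell markers, where Vehicle has 0.193% and AngII 0.230%.

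In the rest of the cells, a mixture of smooth muscle, endothelial, lymphoid and unassigned cells, the chaperone arm took 3397 CPM in Vehicle, 3379 in AngII and 4640 in AngII_VWR, so Vehicle and AngII lay close together. There 5 of 15 chaperone genes were lower in AngII than in Vehicle (median log2 0.11), 0 of them by at least 1.5-fold, where 14.1% of all genes were and 45.6% were lower at all. Hspa5 had 818, 629 and 780 CPM and Sdf2l1 had 50.6, 93.4 and 162. Over single cells the median chaperone share was 0.246, 0.201 and 0.341%, lowest in AngII. The ERAD arm had 2 of 11 genes lower in AngII than in Vehicle and the sensor and ATF4 arm 4 of 8. The make-up of this class differed: smooth muscle markers named 544 of its cells in Vehicle, 15 in AngII and 42 in AngII_VWR, and neutrophil markers named 11, 10 and 130. Erythroid genes took 59872, 14800 and 8986 CPM of it. The part of these differences in the results was not tested. Leaving out 1 AngII cell, chosen after its values were seen, gave 9 of 15 chaperone genes lower.

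Between the AngII libraries the rest resembled the other classes. Here 14 of 15 chaperone genes were higher in AngII_VWR and 6 by at least 1.5-fold (12 without the same AngII cell; median 0.54), where 8.94% of all genes were and 51.8% were higher at all. Manf had 215 CPM in AngII and 367 in AngII_VWR, and Pdia4 73.3 and 124. Cells with T cell markers had a chaperone share of 0.193, 0.230 and 0.343% in Vehicle, AngII and AngII_VWR (157, 76 and 104 cells). Cells with endothelial markers had 0.267% in AngII and 0.426% in AngII_VWR (143 and 62 cells), and Vehicle had 42 such cells, too few to be used.

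Other genes of the secretory pathway were read from 4 further lists. Folding helpers such as prolyl isomerases and oxidases had 10 of 18 measured genes lower in AngII than in Vehicle in fibroblasts, with a median log2 ratio of -0.03 and 0 at least 1.5-fold lower. Glycosylation and glycan trimming genes had 8 of 11 lower (median -0.17), signal peptide and entry genes 13 of 15 (median -0.18) and further ERAD genes 11 of 13 (median -0.24), with 0 called in each. Of all genes 62.0% were lower and 4.90% were at least 1.5-fold lower. In AngII_VWR against AngII the medians of these 4 lists were 0.15, 0.36, 0.30 and 0.28, and 0 of 18, 3 of 11, 1 of 15 and 1 of 13 genes were at least 1.5-fold higher. Of all genes 7.07% were. In the rest, 7 of 18 folding helpers were at least 1.5-fold higher in AngII_VWR than in AngII (median 0.40), where 8.94% of all genes were. In fibroblasts the oligosaccharyltransferase subunits Rpn1 and Stt3a had 185 and 140.5 CPM in AngII_VWR, against 114 and 87.0 in AngII.

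Targets of ATF4 beyond the list were counted in the same way in fibroblasts. Against Vehicle 14 of 21 were lower in AngII, near the 62.0% of all genes, and 5 by at least 1.5-fold, where 4.90% of all genes were (median log2 -0.20). Atf5 had 180 against 296 CPM. In AngII_VWR 12 of 20 were lower than in AngII (median -0.05), where 37.7% of all genes were. Atf3 had 439 CPM in AngII_VWR against 1206 in AngII, and Cebpb 397 against 745. In macrophages 9 of 17 measured targets were lower in AngII than in Vehicle and 8 were higher (median log2 -0.01). Of all genes 51.8% were lower there. At least 1.5-fold lower were 4 of the 17, where 6.29% of all genes were, and 1 was at least 1.5-fold higher, where 6.80% were. Among the lower ones, Gdf15 had 92.2 CPM in AngII against 207 in Vehicle, and Nupr1 156 against 330.

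The collagen and matrix clients of the ER ran opposite to the chaperones in fibroblasts. The 14 client genes took 28872 CPM in Vehicle, 48741 in AngII and 33848 in AngII_VWR. Of these 13 were higher in AngII than in Vehicle (median log2 0.62), 7 by at least 1.5-fold, where 6.78% of all genes were, and 13 were lower in AngII_VWR than in AngII (median -0.36). Col1a1 had 4533, 9934 and 6171 CPM. Col1a1 and Col1a2 also serve to define the fibroblast class, so their levels depend in part on the cut. In macrophages the client genes took 712 CPM in AngII and 1481 in AngII_VWR, and 14 of 14 were higher there, 13 by at least 1.5-fold, where 14.3% of all genes were. Fibroblast-cut genes, some of them clients, moved the same way in that class, and their part was not tested. P4hb, the enzyme subunit that serves collagen, was lowest in AngII and followed the other isomerases and not its clients. Its log2 ratio of AngII to Vehicle was small in fibroblasts (-0.13, where the median of all genes was -0.07). Folding helpers were split there, with 10 of 18 below their Vehicle level in AngII and 8 above it. Among the 8, Fkbp10 had 54.7 CPM in Vehicle and 74.0 in AngII, and Serpinh1 had 1464 and 1676. Serpinh1 had 2247 CPM in AngII_VWR, and so did not follow the clients in that library.

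**Figure D5:**
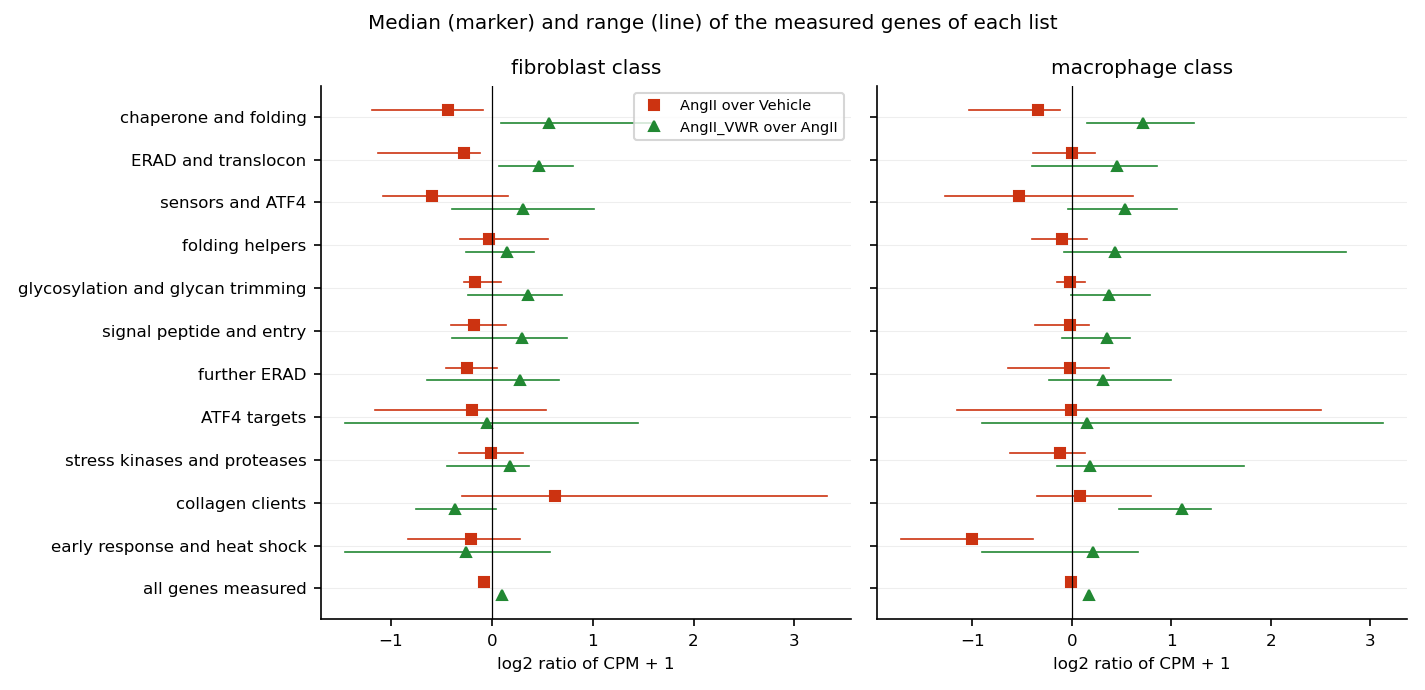
Median log2 ratio of CPM + 1 (marker) and range (line) of each list in fibroblasts and macrophages, squares for AngII over Vehicle and triangles for AngII_VWR over AngII. In fibroblasts the collagen clients have medians of 0.62 and -0.36, on the other sides of 0 from the chaperone medians of -0.44 and 0.56.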

How the data were processed

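Per the labels' protocols, adventitia was peeled from the aorta, digested with Liberase and elastase, freed of red blood cells and loaded for 10x 3′ libraries. The deposited matrices hold raw UMI counts per gene and barcode, written by Cell Ranger 7.0.1 (Vehicle and AngII) and 7.1.0 (AngII_VWR) per the file headers, on mm10 per the submitters' processing notes. Whether intronic reads were counted is not given in the sources used here. Deposited barcodes numbered 15093, 10515 and 19633, with 165977330, 141570158 and 105679209 UMIs.

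The floor for a barcode was 300 genes and 500 UMIs, and its mitochondrial share could reach 10%. The highest Scrublet scores (scanpy 1.11.5) were removed at 0.8% per 1000 cells of a library (1537, 784 and 2894), because Scrublet's own threshold marked 248, 135 and 0. UMIs were summed per class and library, and log2 ratios used a pseudocount of 1 CPM. The median of an arm stands beside that of all measured genes. Intervals are exact Poisson (levels), exact conditional (ratios) and exact binomial (shares), and cover counting error only. The calculation was tested on simulated counts. All 36 members are accounted for, and those under the floor are named as low. Members of the further lists were named when at 50 CPM or more and among the 4 largest ratios of their list. Alternatives changed filters, scaling, cuts, weights, depth, states and the subtraction of 5% RNA of other cells. Members and lists were chosen with earlier results of these data known. Python 3.11.15, numpy 2.4.6, scipy 1.17.1 and pandas 2.3.3 were used, with promoters from RefSeq and gene models from GENCODE M21.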

Additional observations from a re-analysis of the deposited data

How the results depend on the processing

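With 1 library per group no result here has a replicate, and UMI counts limit only the precision of each library. No paired analysis was possible because each group has 1 library and no result comes from a test. The 18 counts of members higher or lower were recounted under 13 alternatives each. Of these 234 recounts, 217 stayed within 1.5 times the reported count and 17 moved, 15 of them in AngII over Vehicle among the rest of the cells. These 17 were all in AngII over Vehicle, and none in fibroblasts. Counts of members at least 1.5-fold apart moved more: 46 of 252 recounts left that range. In fibroblasts, AngII over Vehicle, the chaperone count ran from 3 to 6 (6 reported), the ERAD count from 2 to 4 (2) and the sensor and ATF4 count from 2 to 5 (5). For AngII_VWR over AngII they ran from 6 to 9 (7), 0 to 4 (3) and 1 to 2 (2). In macrophages they ran from 2 to 5 (5), 0 to 0 (0) and 1 to 3 (3), and from 7 to 10 (9), 0 to 3 (1) and 3 to 4 (3). In the rest they ran from 0 to 5 (0), 0 to 3 (0) and 1 to 2 (2), and from 2 to 14 (6), 1 to 4 (2) and 0 to 3 (1). In the rest, the 2 ERAD genes lower became 1 at 20 CPM or more, 1 with RNA of other cells subtracted, 4 with the median gene set to 0, 4 at 1000 genes and 2000 UMIs or more, 4 at up to 20% mitochondrial UMIs, 6 with doubled cuts, 7 with equal weight per cell and 7 with 2000 to 10000 UMIs. The 5 chaperone genes lower there became 15 with doubled cuts, 10 with equal weight and 10 with 2000 to 10000 UMIs. The 4 sensor and ATF4 genes lower became 2 with 2000 to 10000 UMIs and 2 without cells high in early response genes. Without the 1 AngII cell richest in chaperone UMIs, an alternative chosen after seeing the data, 9 chaperone and 4 ERAD genes were lower in the rest. In macrophages the 5 sensor and ATF4 genes lower became 3 without cells high in early response genes, and the 5 ERAD genes became 3 without cells high in class II genes. Of the 84 member ratios under 1.5-fold in fibroblasts and macrophages, 29 changed sign under at least 1 alternative. Of 47 called ratios of members in fibroblasts and macrophages, 45 kept their sign under each alternative. The other 2 reversed without cells high in early response genes, both in macrophages for AngII over Vehicle: Hspa5 to a log2 ratio of 0.0017 and Ppp1r15a to 0.63. The cause was not tested. A kept sign is not a kept call. In macrophages, AngII over Vehicle, the alternative nearest to no difference gave a log2 ratio of -0.35 for Dnajb9 (-1.03 reported). It gave -0.29 for Atf4 (-0.92) and -0.57 for Ddit3 (-1.27), each under 1.5-fold.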

Other observations

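A single AngII cell outside the fibroblast and macrophage classes, singled out after its values were seen, carried most of what was counted of the low member Derl3 there: 84 of the 86 UMIs in the rest of AngII. It had 52341 UMIs and 6327 genes. Chaperone genes took 7.20% of its UMIs, where the next cell of that class had 1.94% and the highest fibroblast of any library 3.20%. It held 849 UMIs of Hsp90b1, 309 of Creld2, 199 of Pdia4, 166 of Sdf2l1 and 118 of Ddit3, and 0 of the plasma, B, T, mast and dendritic cell markers. Without it the level of Creld2 in the rest of AngII was 31.8 CPM in place of 61.7, and that of Derl3 was 0.196 in place of 8.37.

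In AngII a few cells of the rest held much of the low members Asns and Chac1. There 15 cells with at least 0.1% of UMIs from the adipocyte genes Adipoq, Plin1 and Cidec held 69 of 162 Asns UMIs, or 117 CPM against 9.61 in the other cells of the rest. They held 20 of 39 Chac1 UMIs. In Vehicle 8 such cells held 14 of 112 Asns UMIs, or 68.8 CPM against 3.32, and 0 of 18 Chac1 UMIs. In AngII_VWR 4 such cells held 1 of 71 Asns UMIs, which were spread over 54 cells, and 1 of 23 Chac1 UMIs. This split was chosen after the values were seen, and 1 AngII cell alone held 42 of the Asns UMIs and 1 held 19 of Chac1.

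Fibroblasts with at least 2% of their UMIs from the chaperone arm numbered 33 of 6545 in Vehicle (0.504%), 2 of 6081 in AngII (0.0329%) and 13 of 10913 in AngII_VWR (0.119%), a cut set after the shares were seen. Such a share is noisier in shallow cells, and AngII_VWR was the shallowest library.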
